A study of Mus musculus with 3 samples.

Results

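The Hox genes were followed across mouse embryonic stem cells (ESCs) with and without the zinc finger protein ZMYM2. They were taken by name, as genes called Hoxa, Hoxb, Hoxc or Hoxd followed by a number, and 37 of the 39179 genes measured are described. These are 10 Hoxa genes on chromosome 6, 10 Hoxb genes on chromosome 11, 9 Hoxc genes on chromosome 15 and 8 Hoxd genes on chromosome 2. Hoxd4 was not analysed here.

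ZMYM2, also called ZFP198, was studied for its effect on ESC self-renewal, and RNA-seq was run on 3 libraries of E14tg2a ESCs, a mouse ESC line, grown on gelatin in Serum with LIF, the cytokine that sustains ESCs. WT was the unmodified line. Zmym2 KO was a line with Cas9-made frameshifts in both alleles, cloned from a sorted cell by the study's methods, and Zmym2 OE was a drug-selected line that carried a Zmym2 transgene inserted by the PiggyBac transposon. Each group had 1 library, no library of cells with an empty vector was analysed here, and so no difference below has a replicate check or a p-value. The labels of KO and OE conflict: the title of each library (used here) names the opposite of its line description. Zmym2 itself stood at 7956 normalised counts in WT, at 4370 in the library titled KO (ratio 0.55, 95% interval 0.53 to 0.57) and at 57139 in the library titled OE (ratio 7.18, 7.02 to 7.35). Below, KO and OE mean the libraries with these titles, and every direction would be exchanged between them if the line descriptions were right. A frameshift does not by itself remove a transcript, so the level in KO is no check of the knockout.

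Hox genes encode homeodomain transcription factors that give cells along the body axis their position. In each cluster the genes lie in the order in which they act from head to tail, and they are switched on in about that order in the caudal part of the gastrulating embryo under retinoic acid, WNT and FGF signals. In ESCs the clusters are held at a low level under Polycomb proteins. Genes of the same number in different clusters are paralogues and form a paralogue group. Here groups 1 to 3 are called anterior, 4 to 8 middle and 9 to 13 posterior.

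Hox transcripts were rare in every library. Of 50120551 reads assigned to genes in WT, 556 came from these Hox genes, or 11.1 per 1000000 (95% interval 10.2 to 12.1). The KO library gave 392 of 46995766 reads, or 8.34 per 1000000 (7.54 to 9.21). The OE library gave 1934 of 41840774 reads, or 46.2 per 1000000 (44.2 to 48.3). Thus the Hox genes together were higher in OE and lower in KO than in WT. On the scale of normalised counts (reads divided by the library's size factor), their sum was 525 in WT, 396 in KO and 2128 in OE, a ratio to WT of 4.05 (3.68 to 4.46) in OE and 0.75 (0.66 to 0.86) in KO. All intervals are exact and cover counting error only. The median Hox gene had 7 reads in WT against 3 in KO and 33 in OE, and 1 gene in WT, 7 in KO and 0 in OE had no read. With so few reads, fewer cells that express a Hox gene and less RNA in each cell cannot be told apart in these bulk samples.

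**Figure D1:**
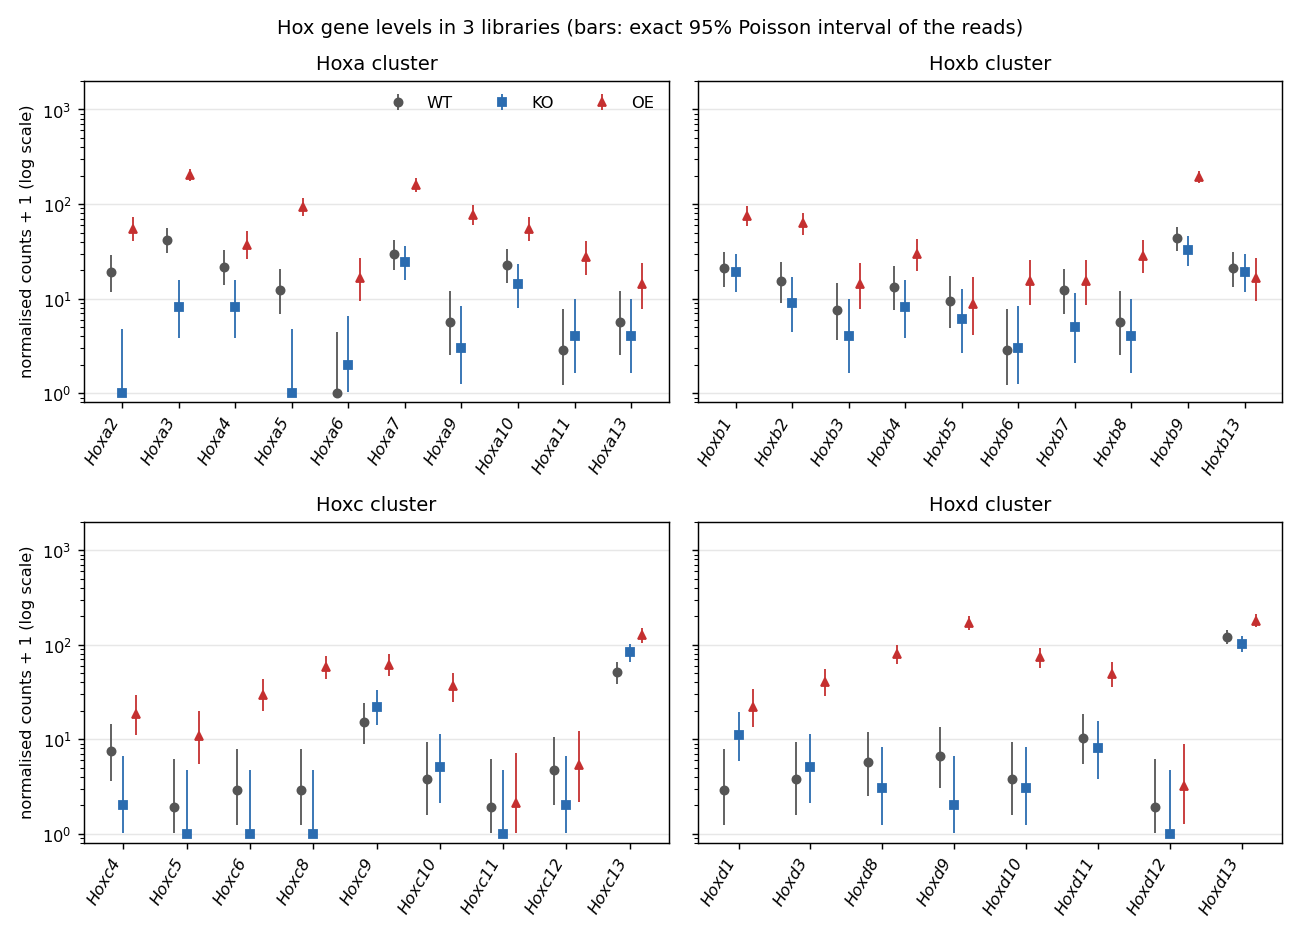
Normalised counts of each Hox gene plus 1 (log axis) in the WT, KO and OE libraries, with genes of a cluster in order from group 1 to group 13 and bars for the exact 95% Poisson interval of the reads. The OE library lies highest for most genes, and Hoxc13 and Hoxd13 are the highest in WT.

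A gene was called when it differed from WT by at least 2-fold on the log2(normalised count + 1) scale, a scale that understates the difference of low genes. Of the 37 Hox genes, 26 averaged 10 or more normalised counts across the 3 libraries. In OE, 23 of these 26 lay at least 2-fold above WT and 0 as far below it, against 12.0% higher and 4.38% lower among all 15688 genes with that mean. Their median log2 ratio was 2.31, and that of all genes was -0.00. Genes of low level differ more often: among the 6984 genes with a mean of 10 to 500 normalised counts, which holds all 26, the shares were 20.5% and 8.00%. Without a minimum, 28 of 37 Hox genes were higher and 0 lower, against 17.4% and 6.51% of all 23511 genes with a read. The interval of the ratio lay above 1 for 24 of the 26 and below 1 for 0, against 32.6% and 32.8% of all genes with that mean. A gene can reach the mean of 10 through a high level in OE alone, so that the counts over the 26 are a description. Of the 15 Hox genes with at least 10 normalised counts in WT, 11 were at least 2-fold higher and 0 lower in OE, against 10.1% and 4.74% of all 15244 genes with that WT level.

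The KO library showed a smaller shift. Of the 26 genes, 7 were at least 2-fold lower and 1 was higher, against 4.09% lower and 4.77% higher among all genes with that mean, and 7.36% and 10.1% among those with a mean of 10 to 500. The median log2 ratio was -0.47 for the Hox genes and -0.02 for all genes. Without a minimum, 10 of 37 were lower and 2 higher, against 5.72% and 12.8% of all genes. Of the 15 genes with at least 10 in WT, 5 were lower and 0 higher, against 4.14% and 3.35%. A minimum in WT favours genes whose WT count is high through counting error, and it leaves out genes low in WT. These counts are therefore a description, and the shares include many genes that are far more deeply sequenced. Few of these differences exceeded counting error: the interval lay below 1 for 4 of the 26 genes and above 1 for 2, against 29.5% and 24.6% of all genes with that mean, many of which are far more deeply sequenced. WT is shared by both comparisons, so that a high or low WT count moves both ratios the same way.

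**Figure D2:**
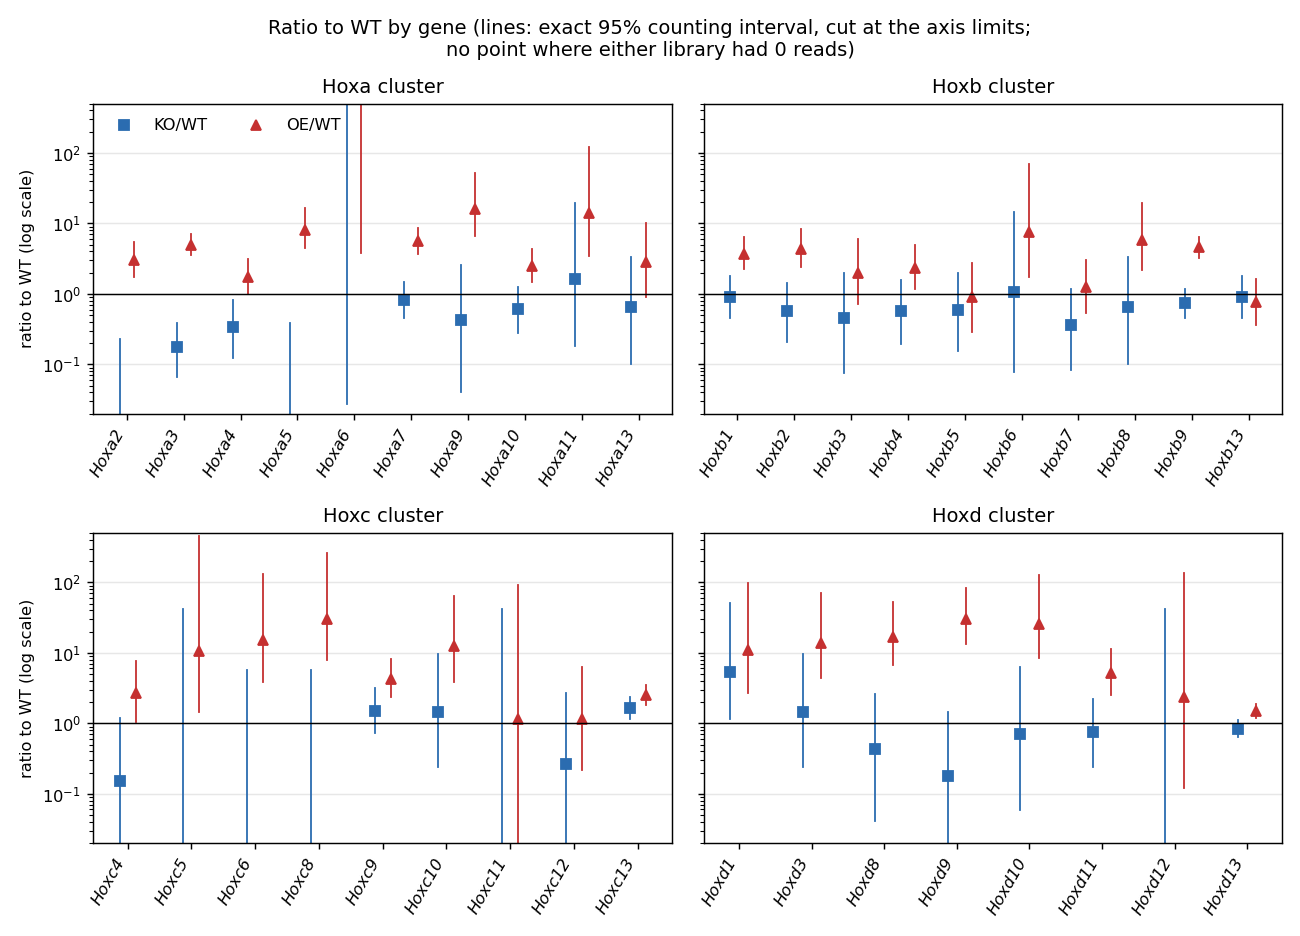
Ratio to WT of each Hox gene in KO and OE (log axis), with lines for the exact 95% counting interval. Most OE ratios lie above 1 in all 4 clusters, and the KO intervals that lie wholly below 1 belong to Hoxa2 to Hoxa5.

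The Hoxa cluster held the clearest difference in KO. Over its 10 genes described, the summed ratio was 4.79 (4.03 to 5.73) in OE and 0.39 (0.29 to 0.53) in KO. Hoxa2, which specifies the second branchial arch, had 19 reads in WT against 0 in KO and 49 in OE, or 17.95, 0 and 53.9 normalised counts. It was 3.00-fold higher in OE (1.74 to 5.40) and, with 3 reads as the limit that a count of 0 allows, at least 5.92-fold lower in KO, while the exact interval of the KO ratio, which also covers counting error in WT, reached up to 0.23. Hoxa3, needed for the thymus and parathyroid, had 43, 7 and 185 reads, or 40.6, 7.07 and 204 normalised counts, with a ratio of 5.01 (3.58 to 7.16) in OE and 0.17 (0.066 to 0.39) in KO. Hoxa2 and Hoxa3 share 15.0% and 8.01% of their exon bases with the overlapping gene model Gm28308.

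The next Hoxa genes kept these directions. Hoxa4 had 22 reads in WT against 7 in KO and 33 in OE, or 20.8, 7.07 and 36.3 normalised counts. Its ratio in KO was 0.34 (0.12 to 0.82), and in OE the interval of 1.75 included 1 (0.99 to 3.15). Hoxa5, which acts in the lung and the cervical skeleton, had 12 reads in WT against 0 in KO and 84 in OE, or 11.3, 0 and 92.4 normalised counts. It was 8.15-fold higher in OE (4.43 to 16.4) and, against 3 reads, at least 3.74-fold lower in KO, with an interval up to 0.38. Summed over Hoxa2 to Hoxa5, the reads numbered 96, 14 and 351, with a ratio of 4.26 (3.39 to 5.39) in OE and 0.16 (0.082 to 0.27) in KO.

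Towards the posterior end of the cluster, the OE library was again higher while the KO library was nearer to WT. Hoxa7, a middle gene, had 30 reads in WT against 23 in KO and 143 in OE, or 28.3, 23.2 and 157 normalised counts, with ratios of 5.55 (3.72 to 8.53) in OE and 0.82 (0.45 to 1.46) in KO. Hoxa9, a regulator of blood progenitors, had 5, 2 and 69 reads, or 4.72, 2.02 and 75.9 normalised counts, and a ratio of 16.1 (6.57 to 51.1) in OE. Hoxa10, which acts in the lumbar skeleton and the uterus, had 23, 13 and 49 reads, or 21.7, 13.1 and 53.9 normalised counts, and a ratio of 2.48 (1.48 to 4.27) in OE. Hoxa11, a gene of the forearm and kidney, was nearly silent in WT and KO with 2 and 3 reads and had 24 in OE, or 1.89, 3.03 and 26.4 normalised counts. Hoxa6 had 0 reads in WT against 1 in KO and 14 in OE, which against 3 reads is at least 5.44-fold higher in OE, with an interval from 3.86, and Hoxa13 had 5, 3 and 12. Over Hoxa6 to Hoxa13 the summed ratio was 5.57 (4.25 to 7.40) in OE and 0.74 (0.49 to 1.10) in KO. The cluster was divided after Hoxa5 because the single KO intervals below 1 end there, so that the 2 sums in KO restate those genes.

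The Hoxb cluster moved less. Hoxb1, which patterns the hindbrain, had 21 reads in WT against 18 in KO and 67 in OE, or 19.8, 18.2 and 73.7 normalised counts, with a ratio of 3.72 (2.25 to 6.39) in OE and 0.92 (0.46 to 1.81) in KO. Hoxb2 had 15, 8 and 56 reads, or 14.2, 8.08 and 61.6 normalised counts, and a ratio of 4.35 (2.43 to 8.28) in OE. Hoxb4, which expands blood progenitors when supplied in excess, had 13, 7 and 26 reads, or 12.3, 7.07 and 28.6 normalised counts, and a ratio of 2.33 (1.15 to 4.94) in OE. Each of these anterior and middle genes was above WT in OE beyond counting error and within it in KO. Hoxb8 had 5, 3 and 25 reads, or 4.72, 3.03 and 27.5 normalised counts, and a ratio of 5.82 (2.19 to 19.5) in OE. Hoxb9, a posterior gene of the thorax, had the most reads of the cluster with 45, 31 and 176, or 42.5, 31.3 and 194 normalised counts, and ratios of 4.56 (3.27 to 6.47) in OE and 0.74 (0.45 to 1.19) in KO. Hoxb13, which lies apart from the rest of the cluster and is known from the tail tip and the prostate, did not follow: it had 21, 18 and 14 reads, or 19.8, 18.2 and 15.4 normalised counts, and its ratio of 0.78 in OE had an interval that included 1 (0.37 to 1.60). Hoxb3, Hoxb5, Hoxb6 and Hoxb7 had 2 to 12 reads in WT against 2 to 5 in KO and 7 to 13 in OE, and of these Hoxb5 was below WT in OE by count, with 9 reads in WT and 7 in OE. The summed Hoxb ratio was 3.18 (2.63 to 3.86) in OE and 0.71 (0.54 to 0.92) in KO.

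In the Hoxc cluster the middle genes were nearly silent in WT and KO. Hoxc8, which acts at the level of the thorax and forelimb motor neurons, had 2 reads in WT against 0 in KO and 52 in OE, or 1.89, 0 and 57.2 normalised counts, a ratio of 30.3 (7.97 to 257) in OE. Hoxc6 had 2, 0 and 26 reads, or 1.89, 0 and 28.6 normalised counts, a ratio of 15.1 (3.79 to 132). Hoxc4 and Hoxc5 had fewer reads in OE, with 7 and 1 in WT, 1 and 0 in KO and 16 and 9 in OE. The 4 middle genes summed to 12 reads in WT against 1 in KO and 103 in OE, a ratio of 9.997 (5.48 to 19.98) in OE and 0.089 (0.0021 to 0.60) in KO. Hoxc9, a posterior gene of thoracic motor neurons, had 15, 21 and 55 reads, or 14.2, 21.2 and 60.5 normalised counts, with ratios of 4.27 (2.38 to 8.14) in OE and 1.497 (0.74 to 3.12) in KO. Hoxc10 had 3, 4 and 32 reads, or 2.83, 4.04 and 35.2 normalised counts, a ratio of 12.4 (3.89 to 63.4) in OE, and it shares 8.70% of its exon bases with a long Hoxc5 model. Hoxc11 and Hoxc12 had 0 to 4 reads in each library.

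Hoxc13, a gene of hair and nail development at the posterior end, held most Hoxc reads of WT and KO. It had 53 reads in WT against 81 in KO and 114 in OE, or 50.1, 81.8 and 125 normalised counts. Its ratio was 2.51 (1.79 to 3.54) in OE and 1.63 (1.14 to 2.36) in KO, so that both libraries were above WT beyond counting error. The KO intervals of Hoxc9 and Hoxc10 contain this KO ratio, so that a difference from them was not detectable at this depth. The summed Hoxc ratio was 4.09 (3.22 to 5.24) in OE and 1.31 (0.98 to 1.76) in KO. Without Hoxc13 these were 6.49 (4.51 to 9.59) and 0.82 (0.48 to 1.40), and the KO sum moved from above WT to below it.

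The Hoxd cluster held the highest ratios of the posterior genes in OE beside one of the smallest. Hoxd9, a gene of the posterior trunk and limb bud, had 6 reads in WT against 1 in KO and 154 in OE, or 5.67, 1.01 and 169 normalised counts, a ratio of 29.9 (13.4 to 82.7) in OE. Hoxd10, which patterns lumbar motor neurons, had 3, 2 and 66 reads, or 2.83, 2.02 and 72.6 normalised counts, a ratio of 25.6 (8.39 to 127). Hoxd8 had 5, 2 and 71 reads, or 4.72, 2.02 and 78.1 normalised counts, a ratio of 16.5 (6.76 to 52.5). The 3 genes lie next to each other, and together they had 14 reads in WT against 5 in KO and 291 in OE, a ratio of 24.2 (14.2 to 44.8) in OE and 0.38 (0.11 to 1.12) in KO. They are the 3 genes of the cluster with the highest OE ratios, so that the sum in OE restates those ratios. Hoxd11, a limb gene, had 10, 7 and 44 reads, or 9.45, 7.07 and 48.4 normalised counts, a ratio of 5.12 (2.54 to 11.4) in OE. Hoxd10 and Hoxd11 share 5.73% and 10.8% of their exon bases with the overlapping gene model Gm28309. Hoxd13, the gene of digit and genital development at the end of the cluster, had 127, 100 and 162 reads, or 120, 101 and 178 normalised counts. Its ratio of 1.49 (1.17 to 1.89) in OE was above 1 but under 2-fold, and in KO it was 0.84 (0.64 to 1.10). Hoxd12, between Hoxd11 and Hoxd13, had 1, 0 and 2 reads.

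At the anterior end of this cluster, Hoxd1 had 2 reads in WT against 10 in KO and 19 in OE, or 1.89, 10.1 and 20.9 normalised counts. It was the only one of the 26 Hox genes that was at least 2-fold higher in KO, with a ratio of 5.35 (1.14 to 50.2) that rests on the 2 WT reads. Hoxd3 had 3, 4 and 36 reads, or 2.83, 4.04 and 39.6 normalised counts, a ratio of 13.98 (4.42 to 70.9) in OE. Since 62.3% of the Hoxd3 exon bases are shared with Hoxd4 and another overlapping model, this count is uncertain. The summed Hoxd ratio was 4.11 (3.44 to 4.94) in OE and 0.86 (0.67 to 1.09) in KO, and without Hoxd13 the OE ratio was 15.2 (10.5 to 22.9).

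Promoters of 6 genes are printed below, for Hoxd8 to Hoxd10 with their high ratios in OE, for Hoxd13 of the same cluster with a ratio under 2-fold, and for Hoxa2 and Hoxa5, which had no read in KO. Each is the sequence just upstream of a RefSeq transcript start (build GRCm38.p6), 5′ to 3′ on the strand of the gene, with CpG dinucleotides in capitals. For Hoxd9, bases that GENCODE M21 places in an exon were left out.
Hoxd8 (chr2:74704365-74704614, plus strand): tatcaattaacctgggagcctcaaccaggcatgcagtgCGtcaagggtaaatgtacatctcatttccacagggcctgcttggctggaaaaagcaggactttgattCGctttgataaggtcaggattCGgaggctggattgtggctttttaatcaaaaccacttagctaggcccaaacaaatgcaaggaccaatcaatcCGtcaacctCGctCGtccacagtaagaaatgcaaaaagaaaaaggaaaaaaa
Hoxd9 (chr2:74697587-74697726, plus strand): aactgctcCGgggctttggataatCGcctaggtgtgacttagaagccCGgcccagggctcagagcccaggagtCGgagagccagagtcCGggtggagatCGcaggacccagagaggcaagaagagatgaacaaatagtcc
Hoxd10 (chr2:74691641-74691890, plus strand): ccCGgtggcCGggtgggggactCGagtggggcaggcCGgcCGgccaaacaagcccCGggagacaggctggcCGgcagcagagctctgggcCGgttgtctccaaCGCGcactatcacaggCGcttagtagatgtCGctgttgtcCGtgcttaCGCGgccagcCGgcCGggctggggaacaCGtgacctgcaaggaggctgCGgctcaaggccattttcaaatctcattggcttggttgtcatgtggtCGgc
Hoxd13 (chr2:74667975-74668224, plus strand): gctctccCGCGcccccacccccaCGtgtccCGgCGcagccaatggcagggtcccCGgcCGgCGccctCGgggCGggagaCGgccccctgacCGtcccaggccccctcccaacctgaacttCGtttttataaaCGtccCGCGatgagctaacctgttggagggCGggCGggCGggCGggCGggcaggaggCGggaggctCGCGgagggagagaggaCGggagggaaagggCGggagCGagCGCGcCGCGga
Hoxa2 (chr6:52164832-52165081, minus strand): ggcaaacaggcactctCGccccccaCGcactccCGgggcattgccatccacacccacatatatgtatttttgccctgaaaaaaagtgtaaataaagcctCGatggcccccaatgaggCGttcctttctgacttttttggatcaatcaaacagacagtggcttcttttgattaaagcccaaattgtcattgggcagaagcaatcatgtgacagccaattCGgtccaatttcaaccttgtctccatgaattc
Hoxa5 (chr6:52204588-52204837, minus strand): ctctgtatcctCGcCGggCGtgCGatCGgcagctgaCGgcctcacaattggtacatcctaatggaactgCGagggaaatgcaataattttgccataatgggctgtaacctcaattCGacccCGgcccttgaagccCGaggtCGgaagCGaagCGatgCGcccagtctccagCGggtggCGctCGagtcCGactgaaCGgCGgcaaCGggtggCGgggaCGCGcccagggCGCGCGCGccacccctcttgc
The sequences of 250 bases ranged from 6 CpG dinucleotides in Hoxd8 and in Hoxa2 to 31 in Hoxd13, with 20 in Hoxd10 and 28 in Hoxa5, and the 140 bases of Hoxd9 held 6. Hoxd8 and Hoxd10, both far above WT in OE, thus differed in CpG content, as did Hoxa2 and Hoxa5, both without a read in KO. Promoter windows of 250 bases before to 50 after the start were found for 21 of the 37 Hox genes (23 windows). They held a median of 15 CpG dinucleotides (4 to 45) against 7 in all 32851 windows, and a median GC content of 58.0% against 52.7%. Each window was also searched on both strands for 3 short motifs. TTTATG, a core of CDX binding sites, was present in 17.4% of the Hox windows and 11.9% of all windows. TGATNNAT, a PBX-HOX type of site, was present in 17.4% and 8.85%, and AGGTCA, the half-site of nuclear receptors such as those for retinoic acid, in 26.1% and 16.3%. With 23 windows these shares rest on 4, 4 and 6 windows, and none of the 6 printed promoters held TTTATG.

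Position in the cluster and the ratio to WT were then set side by side. In OE, 6 of 7 anterior, 11 of 14 middle and 11 of 16 posterior genes were at least 2-fold higher with no minimum level, against 17.4% of all genes. The summed ratio was 4.49 (3.63 to 5.59) for anterior, 5.08 (4.16 to 6.24) for middle and 3.52 (3.10 to 3.999) for posterior genes. The lower posterior sum came with group 13: without its 4 genes the posterior ratio was 6.67 (5.48 to 8.18). In KO, 2 of 7 anterior, 6 of 14 middle and 2 of 16 posterior genes were at least 2-fold lower and 1, 1 and 0 higher, against 5.72% and 12.8% of all genes without a minimum, and the summed ratios were 0.49 (0.34 to 0.68), 0.48 (0.34 to 0.67) and 0.95 (0.81 to 1.11). Without group 13 the posterior ratio in KO was 0.77 (0.58 to 1.03), whose interval overlapped that of the middle genes. Across the 25 Hox genes with at least 20 reads in some library, Spearman's rho between group number and log2 ratio was -0.06 for OE and 0.50 for KO, and over all 37 it was -0.16 and 0.22. These genes share 3 libraries and 4 clusters, and the figures are a description.

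**Figure D3:**
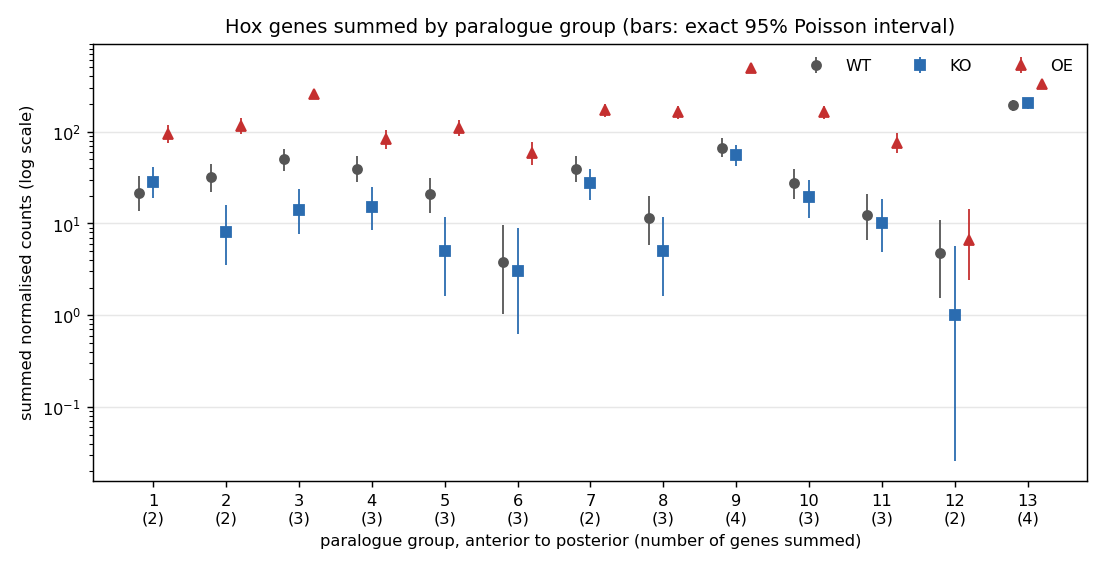
Normalised counts summed over the Hox genes of each paralogue group (log axis) in the WT, KO and OE libraries, with bars for the exact 95% Poisson interval of the reads. OE lies above WT in each group, most narrowly in groups 12 and 13. KO lies below WT in groups 2 to 12, but beyond counting error of the ratio only in groups 2 to 5. In groups 1 and 13 KO lies above WT within counting error.

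By paralogue group, KO was below WT beyond counting error in groups 2 to 5. The ratio was 0.25 (0.10 to 0.55) in group 2, 0.28 (0.14 to 0.52) in group 3, 0.38 (0.20 to 0.70) in group 4 and 0.24 (0.072 to 0.66) in group 5. In group 1, with Hoxb1 and Hoxd1, it was 1.30 (0.72 to 2.37), and in groups 6 to 13 the KO intervals included 1 as well. The Hoxa genes supply most WT reads of groups 2 to 5, so that position and cluster are not separate here. The sum over anterior Hoxb genes had a KO ratio of 0.72 (0.43 to 1.18), against 0.12 (0.047 to 0.26) for anterior Hoxa genes. These sets are unlike, since the Hoxa sum holds Hoxa2 and Hoxa3 alone and the Hoxb sum includes Hoxb1. Hoxb1 supplied 21 of the 43 WT reads of the Hoxb sum, at a KO ratio of 0.92 (0.46 to 1.81). Hoxb2 had 0.57 (0.21 to 1.43) and Hoxb3 0.46 (0.076 to 2.01). Middle genes, which reach group 8, were alike in these clusters, with 0.55 (0.31 to 0.95) in Hoxb and 0.52 (0.33 to 0.81) in Hoxa. Middle Hoxc genes had 0.089 (0.0021 to 0.60) and the middle Hoxd gene 0.43 (0.041 to 2.61). In OE the highest ratios were those of group 6 with 15.4 (5.69 to 58.7) and group 8 with 14.4 (7.98 to 28.4), which rest on 4 and 12 WT reads. The lowest were group 12 with 1.40 (0.36 to 5.79) and group 13 with 1.71 (1.43 to 2.05).

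The make-up of the Hox transcripts differed between libraries. Group 13 made up 37.1% of the Hox reads described in WT (exact 95% interval 33.0 to 41.2), 51.5% in KO (46.5 to 56.6) and 15.6% in OE (14.02 to 17.3). The Hoxa cluster supplied 29.0% in WT (25.2 to 32.9), 15.1% in KO (11.7 to 19.0) and 34.2% in OE (32.1 to 36.4). The Hoxc cluster supplied 15.8% in WT (12.9 to 19.1), 27.6% in KO (23.2 to 32.3) and 16.0% in OE (14.4 to 17.7), so that its share was higher in KO beyond counting error. This higher share came with Hoxc13: the other Hoxc genes supplied 6.29% in WT, 6.89% in KO and 10.1% in OE. The Hoxd cluster supplied 28.2% in WT, 32.1% in KO and 28.6% in OE, whose intervals overlapped.

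Levels per kilobase of exon put the genes in order within a library. In WT, Hoxd13 was highest of those described at 48.3 normalised counts per kb (40.3 to 57.5), followed by Hoxc13 at 20.3 (15.2 to 26.6) and Hoxb9 at 16.5 (12.0 to 22.1), and the intervals of Hoxc13 and Hoxb9 overlapped. In KO the order was Hoxd13 at 40.7 (33.1 to 49.5), Hoxc13 at 33.2 (26.4 to 41.3) and Hoxb9 at 12.2 (8.27 to 17.3), and those of Hoxd13 and Hoxc13 overlapped. In OE, Hoxd9 at 79.3 (67.3 to 92.9), Hoxb9 at 75.3 (64.5 to 87.2) and Hoxd13 at 71.8 (61.2 to 83.8) stood together with overlapping intervals. Hoxd9 was at 2.65 (0.97 to 5.78) in WT, below 17 of the other genes. Over the 25 genes with at least 20 reads, the WT level and the log2 OE/WT ratio had a Spearman's rho of -0.75, and over all 37 it was -0.41. The WT count enters both measures, and a gene low in WT has the 20 reads only where another library is high.

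Other transcripts within the clusters had few reads or none. Of 42 further annotated genes between the outermost genes described, 34 were measured, 18 had no read in any library and 4 had at least 10 reads in some library. Hoxaas3, antisense in the Hoxa cluster, had 3, 1 and 11 reads, and Hoxb3os, antisense to Hoxb2 and Hoxb3, had 0, 0 and 14. Gm53, a noncoding gene between Hoxb9 and Hoxb13, had 82, 62 and 199 reads, whereas the pseudogene Gm11539 beside it had 223, 191 and 209. Of the listed noncoding genes at the clusters, 2 averaged 10 or more normalised counts, both at the anterior end of Hoxa, and they went opposite ways in OE. Halr1, the most abundant of the list, had 1137 reads in WT against 701 in KO and 407 in OE, a ratio of 0.42 (0.37 to 0.47) in OE and 0.66 (0.60 to 0.72) in KO, while Hotairm1 had 10, 3 and 43, a ratio of 5.01 (2.48 to 11.2) in OE. Hotair, Mir10a, Mir10b, Mir196a-2, Mir196b and Mir615 had no read, and mature miRNAs are too short for such libraries.

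Genes that flank the clusters were mostly within 2-fold of WT. None of the listed neighbours of the Hoxb, Hoxc and Hoxd clusters was at least 2-fold away from WT in OE (5 of each with a mean of at least 10), and their median log2 ratios in OE were -0.13, -0.11 and -0.02. Near the Hoxa cluster 2 of 6 neighbours were higher in OE. Of all genes with a mean of at least 10, 12.0% were higher in OE, and 20.5% of those with a mean of 10 to 500. Evx1, a homeobox gene of the primitive streak beyond Hoxa13, had 33.1 normalised counts in WT, 29.3 in KO and 156 in OE, and Jazf1 had 17.0, 35.4 and 121. In KO, Calcoco2 beside the Hoxb cluster had 1921 normalised counts against 703 in WT, a ratio of 2.73, and Jazf1 was just past 2-fold with a ratio of 2.08. Evx2, which adjoins Hoxd13, had no read in any library.

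**Figure D4:**
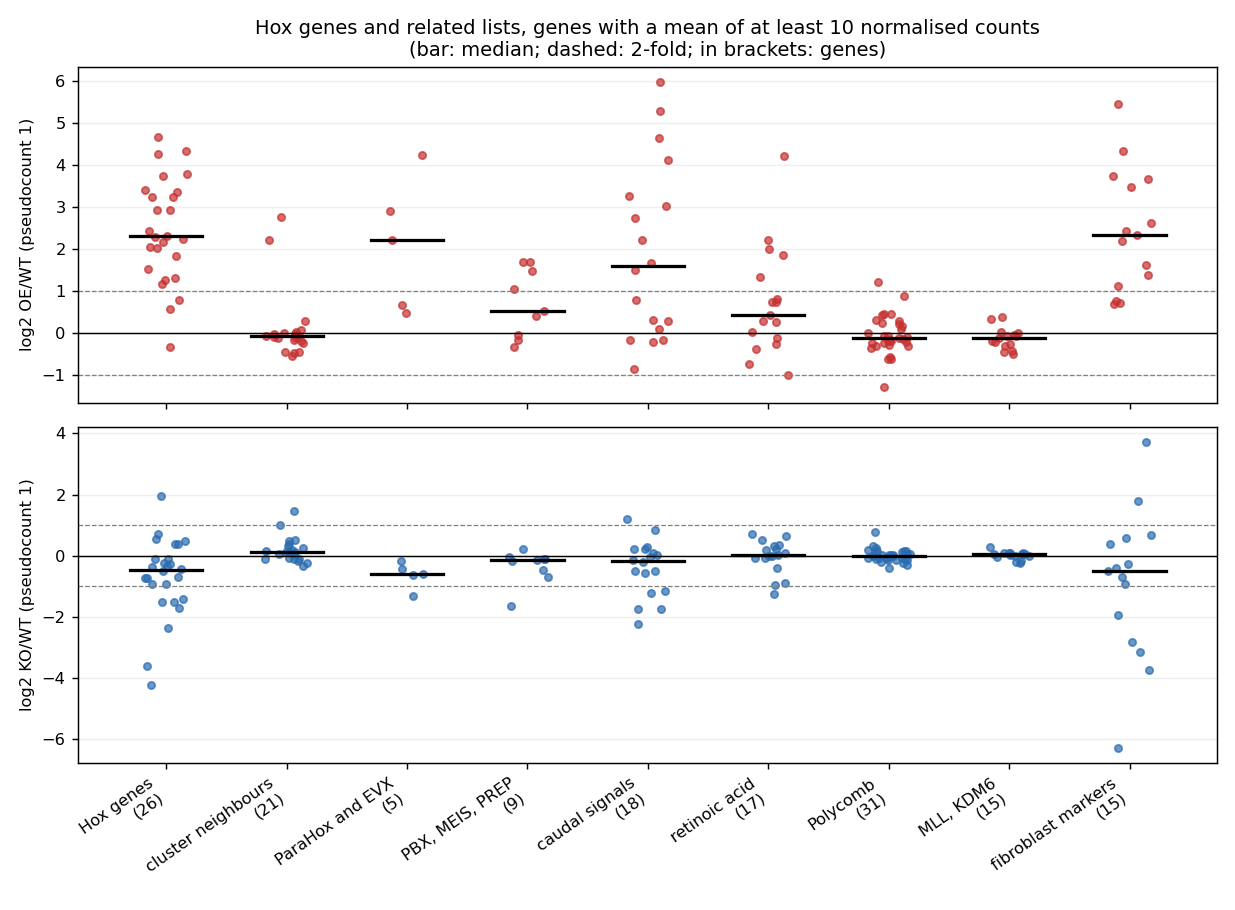
log2 ratio to WT in OE (top) and KO (bottom) for Hox genes, neighbours of the clusters and related gene lists, with 1 point per gene that averaged 10 or more normalised counts and a bar at the median. Of the lists plotted, Hox, ParaHox and EVX, and fibroblast markers have OE medians above 2, and the medians of the Polycomb and MLL lists lie near 0.

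Regulators and partners of Hox genes were read from lists of known genes, counting those with a mean of at least 10. Among ParaHox and EVX genes, relatives of the Hox genes, 3 of 5 passed 2-fold upwards in OE and 1 of 5 downwards in KO, with medians of 2.21 and -0.59. Cdx2, an activator of Hox genes in the caudal embryo, had 41.6 normalised counts in WT, 16.2 in KO and 806 in OE, and Cdx1 had 49.1, 32.3 and 372. Of the PBX, MEIS and PREP cofactors, which bind DNA with Hox proteins, 4 of 9 were higher in OE and 1 was lower in KO. In lists of 5 and 9 genes, 1 lower gene carries little weight. Meis1 had 121, 74.8 and 391 normalised counts, Meis2 had 218, 195 and 704, Meis3 had 120, 37.4 and 335, and Pknox2 had 153, 179 and 316.

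Part of the signals of the caudal epiblast were high in OE as well. Of 18 such genes, 10 were higher and 0 lower in OE, against 12.0% and 4.38% of all genes with that mean, and Wnt3a, Tbx6, Fgf3, Fgf4 and Fgf17 were among the 8 within 2-fold, with ratios of 0.55 to 1.06. In KO 5 were lower and 1 higher, against 4.09% and 4.77%. T (Brachyury), the transcription factor of nascent mesoderm, had 67.1 normalised counts in WT, 28.3 in KO and 4292 in OE. Nkx1-2, a marker of the caudal epiblast, had 17.95, 3.03 and 735, and Wnt3, the ligand that starts the primitive streak, had 56.7, 16.2 and 1452. Fgf8 had 11.3, 27.3 and 215, and in KO it was the gene of this list past 2-fold upwards, while Fgf3, with 27.4, 49.5 and 24.2, and others of the list lay above WT in KO by less. In the retinoic acid pathway 5 of 17 genes were higher in OE and 0 lower. The shares were 12.0% and 4.38% over all genes, and 20.5% and 8.00% over those with a mean of 10 to 500. In KO 1 was lower, the receptor gene Rxrg with 129 normalised counts in WT, 52.5 in KO and 77.0 in OE. The receptor gene Rara, with 4866, 4618 and 2438, was only just within 2-fold of WT in OE, at a ratio of 0.501 (0.476 to 0.527). Rarg, with the highest level of the list, had 18075, 18144 and 13771, an OE ratio of 0.76 (0.74 to 0.78). The sum over the list was thus lower in OE, with 28092, 28357 and 23118. Rdh10, which makes retinaldehyde, had 349, 342 and 1405, Aldh1a3, which makes retinoic acid, had 86.0, 142 and 219, and Cyp26a1, which degrades it, had 26.5, 33.3 and 125.

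Most genes of the chromatin complexes that hold and open Hox clusters were within 2-fold of WT. Of 31 Polycomb genes, 1 was at least 2-fold higher and 1 lower in OE, against 12.0% and 4.38% of all genes with a mean of at least 10. Genes of low level raise these shares, with 20.5% and 8.00% among those with a mean of 10 to 500. Most Polycomb genes listed lie above that range, so that the shares over all genes do not show whether this list was unusually stable. The median of the Polycomb genes was -0.12 in OE, and 0 passed in either direction in KO. Yaf2, of a Polycomb repressive complex, had 298 normalised counts in WT, 259 in KO and 694 in OE, and Phf19, which brings a Polycomb complex to chromatin, had 872, 910 and 354. Of 15 genes of the MLL complexes and H3K27 demethylases, 0 passed in either direction in either library. Within 2-fold, some genes of both lists differed from WT beyond counting error, in each direction. In OE, Jarid2 had a ratio of 0.65 (0.64 to 0.66), Phc2 1.85 (1.73 to 1.98), Ash2l 0.71 (0.69 to 0.72) and Kmt2a 1.30 (1.25 to 1.34). In KO, Suz12 had 1.70 (1.66 to 1.74) and Phc2 0.80 (0.74 to 0.87).

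Of the markers of other cells, those of fibroblasts and of the caudal epiblast moved most with the Hox genes. Of all genes with a mean of at least 10, 12.0% were at least 2-fold higher and 4.38% lower in OE, and 4.77% and 4.09% in KO. Among those with a mean of 10 to 500, 20.5% were higher and 8.00% lower in OE, and 10.1% and 7.36% in KO. All 10 ESC markers were within 2-fold of WT, with medians of -0.38 in OE and -0.11 in KO, and none was at 0. Of 15 fibroblast markers, 12 were higher in OE and 0 lower, in KO 5 were lower and 2, Dcn and Lum, higher, and their summed level was 2464 normalised counts in WT, 1125 in KO and 11634 in OE. Col1a1 with 674, 74.8 and 3077 and Acta2 with 712, 51.5 and 4408 made up most of these sums in WT and OE. Col3a1 and Postn were at 0 in KO and Lum at 0 in WT. Of 11 caudal epiblast and neuromesodermal markers, 8 were higher in OE and 0 lower, with a median of 2.90. In KO 4 were lower and 1 higher, the sums were 737, 443 and 10602, and Msgn1 was at 0 in WT and KO. All genes of this list are also among the caudal signals or the ParaHox and EVX genes above, so that these counts repeat theirs. Neural markers (10) were split in OE with 3 higher and 2 lower, with sums of 9854, 7319 and 14852. The higher OE sum came with the neurofilament genes Nefl and Nefm: without them the sums were 8309, 6517 and 4889, lowest in OE. Of 7 endoderm markers 1 was higher in OE, with sums of 443, 398 and 707, and Ttr was at 0 in every library. Their part in the Hox result was not tested.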

How the data were processed

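Gene-level RNA-seq values of 3 ESC libraries were used, grouped by title into WT, KO and OE with 1 library each. By the study's methods and the labels, the authors removed ribosomal RNA, prepared directional libraries, trimmed reads with Trim Galore, aligned them to GRCm38 (mm10) with TopHat2 and counted them per gene by strand with featureCounts. The release of the annotation was not given in the sources used here. As deposited, the signal of a gene is its count after division by the library's DESeq2 size factor (1.06, 0.990 and 0.909 for WT, KO and OE). A division by transcript length is described but is not seen in the values, since 100% of them came out as a whole number of reads in each library (tolerance 1e-06). Whole reads were recovered from that value. A count of 0 allows 3 reads, or 2.83, 3.03 and 3.30 normalised counts. A table of repeat families and a table of ratios and levels of lineage genes were not used, and of the 4 level columns in the latter 1 is for a line with no sample here.

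Of the 38 genes that the naming rule takes, 1 is withheld and is not reported here, and no sum or count of Hox genes includes it.

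With 1 library per group no test was run. Ratios have exact 95% Clopper-Pearson intervals and levels exact 95% Poisson intervals. Calls used log2(normalised count + 1) with a pseudocount of 1, a mean of at least 10 and 2-fold. Coordinates, exon lengths and overlaps came from GENCODE M21 (GRCm38), and promoters from RefSeq (GRCm38.p6). Python 3.11.15, pandas 2.3.3, scipy 1.17.1 and, for TMM factors, edgeR 4.0.16 were used, and the scripts were tested on simulated data. Hox genes with at least 20 reads in some library were named with their values and the others with their reads. Of each further list, genes at least 2-fold from WT with at least 50 normalised counts were named, at most 4 per comparison, and further genes where a count or a library at 0 called for them. The members, lists and tests were chosen with earlier results of these data known. Alternatives covered scaling, pseudocount, minimum level, fold and leaving out the top gene of a cluster.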

Additional observations from a re-analysis of the deposited data

How the results depend on the processing

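Of 126 values recomputed under alternatives, 106 stayed within the limits set for them, 20 moved further and 0 reversed. No scaling (total reads, housekeeping genes, Gapdh, TMM) moved a count beyond 1.5 times, and none shifted the median log2 ratio of all genes by over 0.1. The number of Hox genes at least 2-fold higher in OE was 23, and it was 5 (of 6) with a minimum mean of 50. With minimums chosen after seeing the data, it was 11 (of 15) with at least 10 normalised counts in WT and 8 (of 11) with a mean of 10 over WT and KO, and the median log2 OE/WT with the former was 1.54. The number higher in KO was 1, and it was 2 without a minimum, at 1.5-fold and by the counting interval, and 0 with a mean of 50, with 10 in WT and with a mean of 10 over WT and KO. The number lower in KO was 7, and it was 4 with a pseudocount of 5, at 3-fold and by the counting interval, 2 with a mean of 50 and with a mean of 10 over WT and KO, and 12 at 1.5-fold. Without the gene with most reads among those described, the summed OE/WT ratio was 4.71 for Hoxa, 2.58 for Hoxb, 6.49 for Hoxc and 15.2 for Hoxd, and the KO/WT ratio for Hoxc was 0.82. No paired analysis was possible because each group has 1 library. In KO, 28 of 37 Hox genes had under 10 reads, which leaves wide counting intervals.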
